A study of Mus musculus with 52 samples.

Results

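Genes that encode chemokines and chemokine receptors were examined for H3K4 methylation in MEFs that lack functional MLL2. They were taken as every gene symbol made of Ccl, Cxcl, Ccr, or Cxcr and a number (and a letter in some), with Cx3cl1 and Cx3cr1, which gave 54 of the 23043 genes with a transcript of at least 250 bp. Of these, 37 encode ligands and 17 encode receptors. MLL2 (gene Kmt2d) is a histone methyltransferase that acts on H3K4. The cells were immortalized mouse embryonic fibroblasts with loxP sites in both MLL2 alleles. FC/FC cells had been exposed to tamoxifen for 24 h, which excises part of the gene from both alleles, and F/F cells had received none (0 h), so the excision and the drug treatment go together in every comparison and cannot be told apart. By the study's methods, the drug was washed off and cells grew for several more days before harvest, unless stated otherwise. H3K4me1, H3K4me2, and H3K4me3 were each mapped by ChIP-seq in 3 FC/FC and 3 F/F libraries, 18 in all. The study describes its replicates as independent, but does not say from which cultures or clones each came, and p-values measure the spread between these libraries.

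Chemokines are small secreted proteins that attract leukocytes along a gradient by binding receptors that couple to G proteins. Fibroblasts make several of them, among them Cxcl12, which holds stem cells and lymphocytes in their niches through Cxcr4, and the neutrophil and monocyte attractants Cxcl1, Cxcl5, and Ccl2, which NF-κB induces in inflammation. Most chemokine receptors are made by leukocytes. H3K4me3 marks promoters in use, H3K4me1 marks enhancers and the flanks of promoters, and H3K4me2 is found at both.

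Levels are given as RPKM, the reads over a transcript and 500 bp on each side of it, divided by its length and by the library's reads summed over all transcripts. Genes can be ranked by it, but it is blind to a shift shared by all genes. It is also an average over the whole transcript, so a mark confined to the promoter is diluted in a long gene, and ranks favour short ones. Ccl25, of 34811 bp, had a promoter H3K4me3 peak in every library but a mean of 1.66 RPKM, beside 7.32 RPKM for Cxcl1, of 1871 bp. Summed over transcripts, the libraries had 26714377 to 49990775 reads, where a read under more than 1 transcript can count more than once. One H3K4me2 library of FC/FC cells, NGS-6282, carries the catalogue number of the H3K4me1 antibody in a label, but is named H3K4me2 in the rest. Over 23043 genes it ranked with H3K4me2 (Spearman correlations of 0.990 to 0.992 with those libraries) rather than with H3K4me1 (0.822 to 0.857), and H3K4me2 results that depend on it are given without it as well. RPKM over Kmt2d as a whole does not check the excision, because the reads cover the entire gene. The summed H3K4me3 level of 15 fibroblast marker genes was 79.4 to 80.8 RPKM in FC/FC and 77.7 to 80.6 RPKM in F/F libraries, beside 4.17 to 4.61 RPKM in FC/FC and 4.09 to 4.57 RPKM in F/F libraries for 15 haematopoietic markers. All of these are bulk chromatin, in which a mark in fewer cells and less of the mark per cell cannot be told apart.

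The promoters of 5 members for which a sequence was at hand are shown first. They span 250 bases before and 50 after the start site, in the transcribed direction, and come from RefSeq on GRCm38.p6, the same genome as the mm10 build of the files. Capitals mark matches to 4 motifs searched on both strands, the κB motif of NF-κB, AP-1 (TGANTCA), the interferon element ISRE (GAAANNGAAA), and the TATA box (TATAAA). Cxcl1 (chr5:90890995-90891294, plus strand) and Cxcl10 (chr5:92348840-92349139, minus strand) are inflammatory ligands. Cxcl12 (chr6:117168285-117168584, plus strand) and Cxcr4 (chr1:128592250-128592549, minus strand) are a ligand and its receptor. Ccl17 (chr8:94810203-94810502, plus strand), a ligand of Ccr4, had the smallest H3K4me1 p-value of the group.
Cxcl1: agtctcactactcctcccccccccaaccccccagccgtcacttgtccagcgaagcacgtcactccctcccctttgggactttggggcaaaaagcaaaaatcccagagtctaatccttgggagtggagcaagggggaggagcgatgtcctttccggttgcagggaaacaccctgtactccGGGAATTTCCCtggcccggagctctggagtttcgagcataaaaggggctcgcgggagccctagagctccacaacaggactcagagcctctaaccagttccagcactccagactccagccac
Cxcl10: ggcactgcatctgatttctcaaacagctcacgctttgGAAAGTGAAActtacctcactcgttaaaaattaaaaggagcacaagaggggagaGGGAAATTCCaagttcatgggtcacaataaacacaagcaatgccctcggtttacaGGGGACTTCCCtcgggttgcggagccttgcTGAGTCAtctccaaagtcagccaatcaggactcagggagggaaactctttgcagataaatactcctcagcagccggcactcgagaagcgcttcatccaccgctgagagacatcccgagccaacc
Cxcr4: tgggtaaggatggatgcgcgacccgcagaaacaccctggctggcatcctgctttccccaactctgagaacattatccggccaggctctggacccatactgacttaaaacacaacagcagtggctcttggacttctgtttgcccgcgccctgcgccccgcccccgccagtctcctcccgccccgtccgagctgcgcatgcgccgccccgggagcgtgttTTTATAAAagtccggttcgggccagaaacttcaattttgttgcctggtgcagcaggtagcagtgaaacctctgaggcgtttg
Cxcl12: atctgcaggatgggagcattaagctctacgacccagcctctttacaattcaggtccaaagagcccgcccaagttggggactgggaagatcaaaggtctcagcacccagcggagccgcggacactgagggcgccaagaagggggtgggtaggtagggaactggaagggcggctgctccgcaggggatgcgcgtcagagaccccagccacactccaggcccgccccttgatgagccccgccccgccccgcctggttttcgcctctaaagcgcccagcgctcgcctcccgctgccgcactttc
Ccl17: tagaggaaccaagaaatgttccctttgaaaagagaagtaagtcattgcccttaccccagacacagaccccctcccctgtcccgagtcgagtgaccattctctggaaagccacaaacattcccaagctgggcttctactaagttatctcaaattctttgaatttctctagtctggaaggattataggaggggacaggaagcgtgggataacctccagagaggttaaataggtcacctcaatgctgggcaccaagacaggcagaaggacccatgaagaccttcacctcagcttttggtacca

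The promoter of Cxcl1 held overlapping κB matches that begin 71 and 70 bases before the start site. That of Cxcl10 held an ISRE match at 213 bases, κB matches at 159, 104, and 103 bases, and an AP-1 match at 74 bases before the start. Cxcr4 had overlapping TATA box matches at 32 and 30 bases before the start, and none of the 4 motifs was found in these windows of Cxcl12 and Ccl17. A promoter within 100 bp of the start site used in the files was found for 36 of the 54 members. None was found for Cxcl17, Cxcl5, and Ccl2, so theirs are not shown. A κB match was present in 9 of the 36 (25.0%), against 9.20% of the promoters of 16146 genes chosen in the same way. AP-1 was found in 6 of 36 (16.7%, against 7.48%), the TATA box in 9 of 36 (25.0%, against 13.1%), and ISRE in 2 of 36 (5.56%, against 3.38%). Cxcl1, Cxcl2, and Cxcl3, which attract neutrophils through Cxcr2, were 3 of the 9 with a κB match. The observed over expected CpG ratio had a median of 0.207 in the members and 0.586 in the other set. Among the promoters shown it was 0.767 in Cxcr4, 0.639 in Cxcl12, 0.528 in Cxcl10, 0.397 in Cxcl1, and 0.174 in Ccl17. A match is a description of the sequence and does not show that a factor binds there.

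Few chemokine genes had H3K4me3 at the promoter in these fibroblasts. A promoter was counted as marked where a deposited peak overlapped the 1 kb on either side of the start site by at least 1 bp. In all 6 H3K4me3 libraries this held for 11 members (20.4%), against 53.0% of the 23043 genes. The 9 ligands among them were the neutrophil attractants Cxcl1 and Cxcl5, the interferon-induced Cxcl10, the stromal Cxcl12, the Ccr10 ligands Ccl27a and Ccl27b, the Ccr9 ligand Ccl25, and the membrane-bound Cx3cl1 and Cxcl16. The 2 receptors were Cxcr4 and Ccr10. A further 3 members, Cxcl17, Ccl9, and Cxcl14, had H3K4me2 peaks in all 6 libraries and no H3K4me3 peak (5.56%, against 4.53% of genes). No peak of any mark was found in any library at 33 members (61.1%, against 32.7% of genes), among them Ccr1, Ccr2, Ccr3, and Cx3cr1, receptors of myeloid cells, and Ccr7, the lymph-node homing receptor. The remaining 7, Ccl2, Ccl6, Ccl7, Ccl17, Ccr9, Cxcl15, and Cxcr6, had peaks in some libraries or of H3K4me1 or H3K4me2 only. Median CpG ratio was 0.615 in the 7 members with H3K4me3 peaks in all libraries and a matched promoter, and 0.192 in the 22 without a peak.

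**Figure D1:**
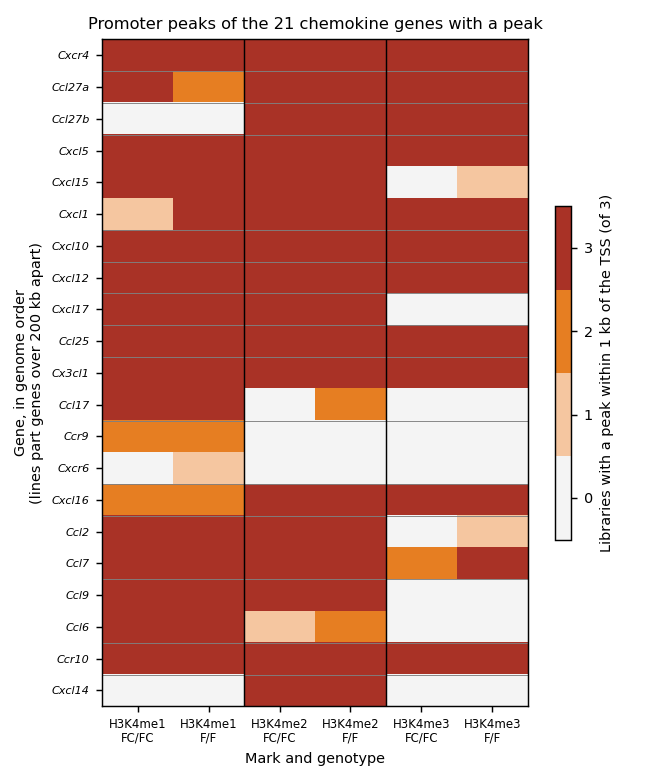
Number of libraries, of 3 FC/FC and 3 F/F for each mark, with a peak within 1 kb of the start site of each of the 21 members with a peak in any library, in genome order. The other 33 of the 54 members have none, and in no member is a mark present in all libraries of one genotype and absent from all of the other.

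Neighbouring members differed in their marks. In the neutrophil ligand cluster on chromosome 5, Cxcl5 and Cxcl1 had H3K4me3 in all 6 libraries, whereas Cxcl2, whose start site lies 12.7 kb from that of Cxcl1, and Cxcl3, 26.8 kb from Cxcl5, had no peak. In the monocyte ligand cluster on chromosome 11, Ccl2 and Ccl7, 10.1 kb apart, had H3K4me1 and H3K4me2 peaks in all 6 libraries, and Ccl11, Ccl12, Ccl8, and Ccl1 had no peak. H3K4me3 peaks were called at Ccl7 in 2 of 3 FC/FC and 3 of 3 F/F libraries, and at Ccl2 in 1 F/F library. Some of these peaks also cover the start site of another gene. The highest-scoring H3K4me3 peak counted for Ccr10 begins 374 to 611 bp downstream of its start, and in 1 of 3 FC/FC and 2 of 3 F/F libraries it holds the start of Plekhh3, 4141 bp downstream. The H3K4me1 and H3K4me2 peaks counted for Ccr10 hold the start of Cntnap1, 674 bp upstream, in all 6 libraries of each mark. The H3K4me2 and H3K4me3 peaks of Cxcl16 hold the start of Zmynd15 in all 6 libraries. Those of Ccl25 and Ccl27b hold the starts of Elavl1 and 4933409K07Rik in 5 or 6 of the 6. The values of these members cannot be assigned to the chemokine gene alone. Ccl27b is listed at 7, Ccl21b at 6, Ccl21a at 2, and Ccl19 at 2 places in the tables, and reads of such near-identical copies may be split between them, so their low levels are uncertain.

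The highest H3K4me2 and H3K4me3 levels were those of Ccr10, Cxcl5, Cxcl1, and Cxcl12, and the highest H3K4me1 levels those of Ccr10, Ccl2, Ccl7, and Ccl17. H3K4me2 over Cxcl5, a neutrophil attractant (gene ID 20311), was 13.5, 12.3, and 11.9 RPKM in the FC/FC and 12.5, 11.4, and 12.0 RPKM in the F/F libraries. H3K4me3 over it was 10.1, 11.2, and 9.44 RPKM in FC/FC against 9.14, 8.81, and 9.69 RPKM in F/F libraries. The genotypes overlapped in both marks. H3K4me2 over Cxcl1, which acts on the same receptor (gene ID 14825), was 8.08, 7.62, and 7.67 RPKM in FC/FC against 7.30, 7.08, and 7.81 RPKM in F/F libraries. H3K4me3 over Cxcl1 was 7.08, 7.69, and 6.63 RPKM in FC/FC against 7.08, 7.64, and 7.80 RPKM in F/F libraries, again with overlap. The monocyte attractants Ccl2 and Ccl7 ranked far higher among genes in H3K4me1, above 99.3% and 98.4% of them, than in H3K4me3, above 52.9% and 65.3%. H3K4me1 over Ccl2 was 4.17, 4.45, and 4.04 RPKM in FC/FC against 4.62, 4.59, and 3.99 RPKM in F/F libraries. H3K4me3 over Ccl2 was 0.394, 0.533, and 0.481 RPKM in FC/FC against 0.462, 0.749, and 0.811 RPKM in F/F libraries. H3K4me2 over Ccl7 varied within FC/FC cells (3.37, 5.58, and 4.02 RPKM) more than within F/F cells (4.184, 4.848, and 5.0002 RPKM), and H3K4me3 over it likewise (1.04, 1.97, and 0.914 RPKM in FC/FC against 1.02, 1.38, and 1.45 RPKM in F/F libraries).

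Across the 54 members, the median of the mean level was 0.711 RPKM for H3K4me1 (0.739 over all genes), 0.236 RPKM for H3K4me2 (0.704), and 0.210 RPKM for H3K4me3 (0.449). Receptors were below ligands in each mark, with medians of 0.370 against 0.846 RPKM for H3K4me1, 0.0943 against 0.387 RPKM for H3K4me2, and 0.149 against 0.235 RPKM for H3K4me3. Receptors and ligands were not matched for transcript length, on which this measure depends. Of the 10 CC receptors, 8 had no H3K4me1 peak and 9 no H3K4me2 or H3K4me3 peak at the promoter. The 3 interferon-induced ligands were unlike each other in H3K4me2, with mean levels of 4.19 RPKM at Cxcl10, 0.885 RPKM at Cxcl9, and 0.494 RPKM at Cxcl11, all 3 of which bind Cxcr3. H3K4me1 was closer among them (1.501, 2.17, and 1.08 RPKM in the same order).

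**Figure D2:**
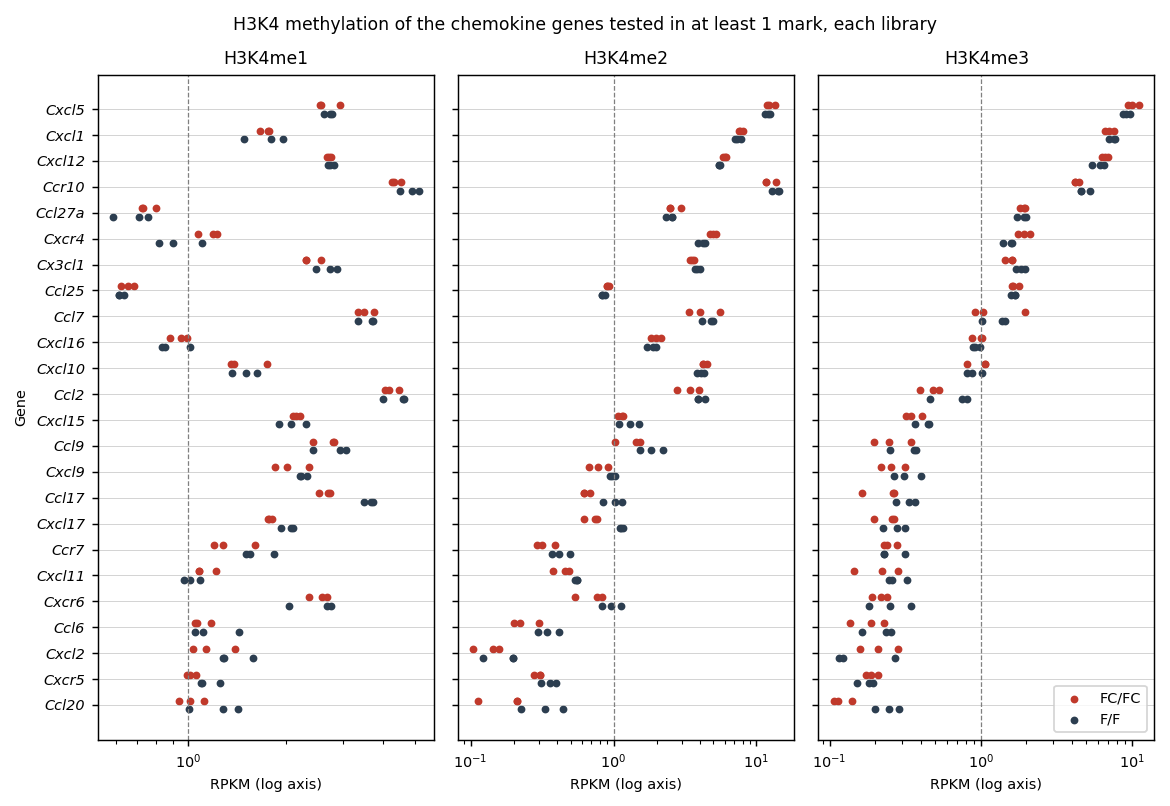
RPKM (log axis) of each member tested in at least 1 mark, 24 in all, in every FC/FC and F/F library for H3K4me1, H3K4me2, and H3K4me3. The dashed line is at RPKM 1. Most members lie at the same level in FC/FC and F/F libraries, and Ccl2 and Ccl17 lie above the line in H3K4me1 and below it in H3K4me3.

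Differences between the genotypes were small. A gene was tested for a mark where its RPKM exceeded 1 in 3 or more of the 6 libraries. Limma was applied to log2(RPKM + 0.1), which makes the change of low genes look smaller than it is. This admitted 21 of the 54 members for H3K4me1 (38.9%, against 37.2% of all genes), 14 for H3K4me2 (25.9%, against 43.3%), and 10 for H3K4me3 (18.5%, against 39.4%). At an adjusted p under 0.05, 1 member passed for H3K4me2, Cxcl17, against 2.12% of the 9986 genes tested. Cxcl17 was also the sole member, in any mark, whose libraries above RPKM 1 were the 3 of one genotype (F/F). Of the 82 genes admitted for H3K4me2 through the F/F libraries alone, 43 were called, so the level for testing itself favours a difference in such genes. Without the filter, Cxcl17 was again the sole member called for H3K4me2, against 1.96% of 23043 genes. For H3K4me1, 0 of 21 members and 0% of 8566 genes passed with limma, and 1 member, Ccl17, passed with limma-voom on the reads recovered from the RPKM, which called 8.44% of the genes. For H3K4me3, 0 of 10 members and 0% of 9073 genes passed with limma, and with voom no member and 0% of genes passed. Voom called 1 member, Cxcl17, for H3K4me2 (3.63% of genes).

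At an unadjusted p under 0.05, 5 members were lower and 1 higher in FC/FC cells for H3K4me1 (15% and 10% of all genes tested). For H3K4me2 these counts were 3 and 2 (7.62% and 21.4%), and for H3K4me3 they were 2 and 1 (2.01% and 1.71%). The log2 fold change of FC/FC over F/F was below 0 in 17 of 21 members for H3K4me1, 7 of 14 for H3K4me2, and 4 of 10 for H3K4me3. Its median was -0.06 (all genes -0.00), -0.03 (all genes 0.07), and 0.02 (all genes 0.01) in these marks. The H3K4me2 calls over all genes were 58 higher and 154 lower in FC/FC cells, and 27 and 406 once each library was centred on its median, so the split between the directions moves with the scaling.

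**Figure D3:**
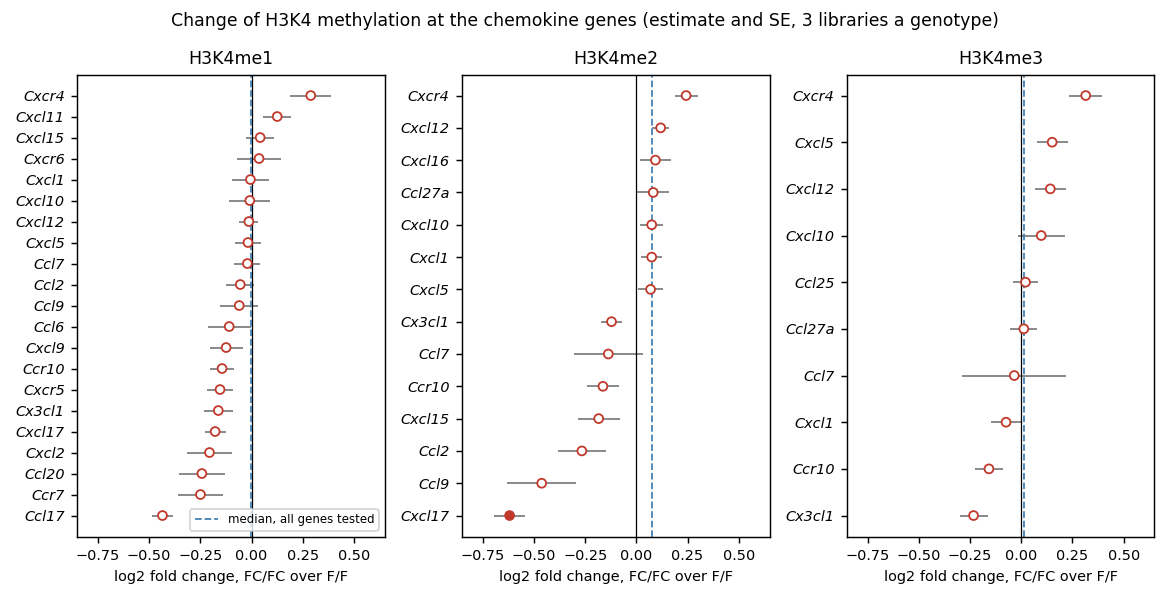
Log2 fold change (FC/FC over F/F) of each member tested, with its standard error, from limma on log2(RPKM + 0.1) with 3 libraries per genotype. Filled points passed at an adjusted p under 0.05, and the dashed line is the median of all genes tested for the mark. Cxcl17 in H3K4me2 is the sole filled point, at -0.62.

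H3K4me2 over Cxcl17, a mucosal chemokine, was lower in FC/FC cells. The gene (gene ID 232983) lies on the minus strand of chromosome 7 (mm10 chr7:25400053-25412886). H3K4me2 over it was 0.743, 0.763, and 0.617 RPKM in the FC/FC libraries, against 1.13, 1.11, and 1.17 RPKM in the F/F libraries. Every FC/FC library lay below every F/F library, and also below the RPKM of 1 needed for testing, which Cxcl17 reached through the F/F libraries alone. The means were 0.708 ± 0.0791 RPKM in FC/FC and 1.14 ± 0.0328 RPKM in F/F cells (SD, n = 3 each), a log2 fold change of -0.62 with a standard error of 0.08 (limma adjusted p = 0.0229). Fitted with all genes and no filter, the limma adjusted p was 0.0281. These values rest on 324 to 786 reads, and the mean level is above that of 55.4% of all genes. The call needed most of the libraries, since without NGS-6290 the limma adjusted p was 0.0675, without NGS-6278 0.112, without NGS-6286 0.0624, and without NGS-6294 0.156. Without NGS-6282 it was 0.00513, in a fit that called 2108 genes higher and 847 lower in FC/FC cells. In those fits the log2 fold change was -0.67 to -0.54.

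The H3K4me2 peak counted for Cxcl17 also differed in its upstream edge. H3K4me2 peaks began 387 to 563 bp after the start site in the FC/FC libraries and 188 to 313 bp after it in the F/F libraries. They ended 2267 to 2427 bp after the start site in FC/FC and 2362 to 2433 bp after it in F/F libraries, with overlap. They were 1705 to 2037 bp wide in FC/FC against 2050 to 2245 bp in F/F libraries. Their scores, -10 times the log10 of the p-value from the peak caller, were 598, 621, and 449 in FC/FC against 1291, 994, and 1840 in F/F libraries. Scores and called widths can also move with depth. H3K4me1 over Cxcl17 was 1.77, 1.82, and 1.79 RPKM in FC/FC against 2.11, 1.94, and 2.07 RPKM in F/F libraries, without overlap but not past the test (log2 fold change -0.18, limma adjusted p = 0.103). H3K4me3 over it was 0.258, 0.267, and 0.197 RPKM in FC/FC against 0.225, 0.314, and 0.280 RPKM in F/F libraries, which overlapped. The extended window of Cxcl17 overlaps that of 4732471J01Rik, and reads without strand cannot be divided between them.

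Ccl17, which attracts T cells through Ccr4, had the largest H3K4me1 difference among the members tested but did not pass. The gene (gene ID 20295) lies on the plus strand of chromosome 8 (mm10 chr8:94810453-94812036). H3K4me1 was 2.54, 2.70, and 2.74 RPKM in the FC/FC libraries, against 3.67, 3.72, and 3.499 RPKM in the F/F libraries, with no overlap. The means were 2.66 ± 0.106 RPKM in FC/FC and 3.63 ± 0.117 RPKM in F/F cells (SD, n = 3 each), a log2 fold change of -0.43 with a standard error of 0.05 (limma adjusted p = 0.0555). The adjusted p was 0.0408 with quantile normalization, 0.0360 with centred libraries, and 0.00779 with limma-voom, and ranged up to 0.188 over the 15 alternatives. H3K4me2 over Ccl17 was 0.626, 0.681, and 0.624 RPKM in FC/FC against 1.15, 0.843, and 1.02 RPKM in F/F libraries, also without overlap but under the level for testing. H3K4me3 was 0.265, 0.163, and 0.261 RPKM in FC/FC against 0.273, 0.365, and 0.335 RPKM in F/F libraries, again without overlap and on 14 to 42 reads. At its promoter, the H3K4me1 signal was called as 1 peak of 2692 to 3706 bp in the F/F libraries and of 2930 bp in the FC/FC library NGS-6297. In the other 2 FC/FC libraries it was called as 2 separate peaks, the higher-scoring of which was 1350 and 1273 bp wide. H3K4me2 peaks were called at its promoter in 0 of 3 FC/FC and 2 of 3 F/F libraries.

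**Figure D4:**
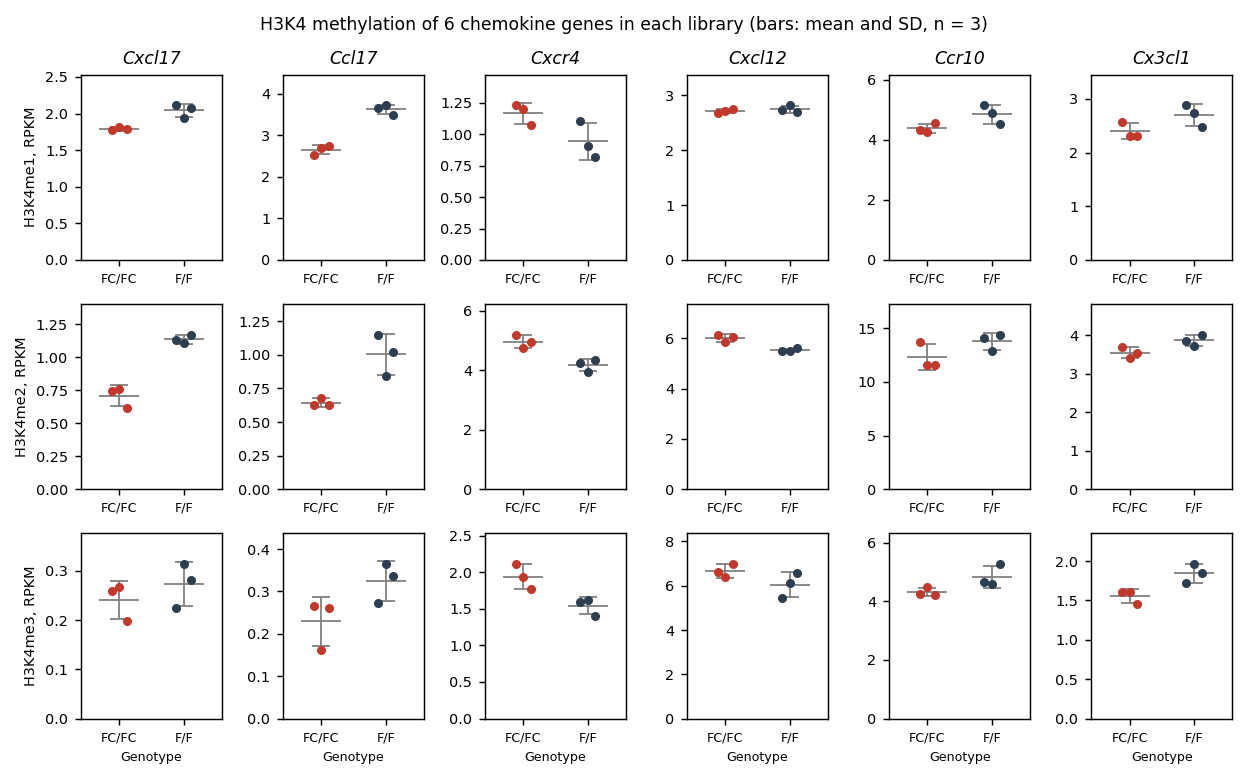
RPKM of Cxcl17, Ccl17, Cxcr4, Cxcl12, Ccr10, and Cx3cl1 in each FC/FC and F/F library for the 3 marks, with the mean and SD (n = 3). Cxcl17 in H3K4me2 and Ccl17 in H3K4me1 are lower in all FC/FC libraries than in any F/F library, and Cxcr4 in H3K4me2 and H3K4me3 is higher.

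Cxcr4, a receptor of leukocytes and stem cells, and its ligand Cxcl12 had higher H3K4me2 in every FC/FC library than in any F/F library, but neither passed the test. They were the 2 of 14 members tested with this pattern, which 2717 of the 9986 genes tested also had. Over Cxcr4 (gene ID 12767, mm10 chr1:128588199-128592299, minus strand), H3K4me2 was 5.19, 4.74, and 4.93 RPKM in FC/FC against 4.24, 3.93, and 4.35 RPKM in F/F libraries, with no overlap (log2 fold change 0.24 with a standard error of 0.06, limma adjusted p = 0.0711). H3K4me3 was 2.11, 1.94, and 1.78 RPKM in FC/FC against 1.595, 1.623, and 1.408 RPKM in F/F libraries, also without overlap (log2 fold change 0.31, limma adjusted p = 0.754). For H3K4me1 the values were 1.23, 1.198, and 1.07 RPKM in FC/FC against 1.11, 0.904, and 0.816 RPKM in F/F libraries, which overlapped (log2 fold change 0.29, limma adjusted p = 0.136). None of these passed with all 6 libraries. Without NGS-6282, Cxcr4 passed for H3K4me2 (limma adjusted p = 0.0262), while the genes called over all rose to 2108 higher and 847 lower in FC/FC cells. Its H3K4me1 peak, the higher-scoring where a library had 2 (NGS-6277), was 2280 to 2925 bp wide in FC/FC and 575 to 1545 bp in F/F libraries. Called width can move with depth, and the FC/FC libraries of this mark were deeper (31253262 to 38871331 reads summed over transcripts, against 26714377 to 30528079 in F/F). The F/F peaks of NGS-6285 and NGS-6293 scored 56.05 and 54.91, close to the minimum of 50.

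Over Cxcl12 (gene ID 20315, mm10 chr6:117168535-117181368, plus strand), H3K4me2 was 6.14, 5.86, and 6.05 RPKM in FC/FC against 5.50, 5.50, and 5.60 RPKM in F/F libraries, without overlap (log2 fold change 0.12 with a standard error of 0.04, limma adjusted p = 0.125). H3K4me3 was 6.62, 6.40, and 6.98 RPKM in FC/FC against 5.45, 6.13, and 6.55 RPKM in F/F libraries, which overlapped. H3K4me1 was 2.69, 2.72, and 2.76 RPKM in FC/FC against 2.73, 2.82, and 2.69 RPKM in F/F libraries, a log2 fold change of -0.01. The H3K4me2 difference of Cxcl12 is close to the median of all genes, 0.07.

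Ccr10, the receptor of Ccl27 and Ccl28, and Cx3cl1, the membrane-bound ligand of Cx3cr1, were lower in FC/FC cells in each mark, but did not pass in any with all 6 libraries. Over Ccr10 (gene ID 12777, mm10 chr11:101172998-101175443, minus strand), H3K4me3 was 4.24, 4.49, and 4.23 RPKM in FC/FC against 4.65, 4.599, and 5.27 RPKM in F/F libraries, with no overlap (log2 fold change -0.16, limma adjusted p = 0.990). Over the same gene, H3K4me1 was 4.32, 4.27, and 4.54 RPKM in FC/FC against 5.14, 4.90, and 4.52 RPKM in F/F libraries, and H3K4me2 was 13.7, 11.6, and 11.6 RPKM in FC/FC against 14.1, 12.8, and 14.4 RPKM in F/F libraries, both with overlap. Without NGS-6282, Ccr10 passed for H3K4me2 (limma adjusted p = 0.0192), in a fit that called 2108 genes higher and 847 lower in FC/FC cells. Over Cx3cl1 (gene ID 20312, mm10 chr8:94772180-94782426, plus strand), H3K4me3 was 1.605, 1.606, and 1.452 RPKM in FC/FC against 1.72, 1.96, and 1.85 RPKM in F/F libraries, with no overlap (log2 fold change -0.23 with a standard error of 0.07, limma adjusted p = 0.910). H3K4me2 over Cx3cl1 was 3.68, 3.40, and 3.55 RPKM in FC/FC against 3.86, 3.73, and 4.02 RPKM in F/F libraries, again without overlap (log2 fold change -0.12, limma adjusted p = 0.164). Its H3K4me3 peak was 1655 to 1977 bp wide in FC/FC and 2163 to 2393 bp in F/F libraries. Called width can move with depth. Summed over transcripts, the H3K4me3 libraries had 31113989 to 33574912 reads in FC/FC and 29716371 to 48469734 in F/F cells.

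Of the 8 members tested in all 3 marks, 3 were lower in FC/FC cells in every mark (Cx3cl1, Ccl7, and Ccr10), and 1 was higher (Cxcr4). Among the 5811 genes tested in all 3 marks, 11.8% were lower and 35.0% higher in every mark. Ccl9, a ligand of Ccr1, had the second largest H3K4me2 difference after Cxcl17. Its values were 1.02, 1.43, and 1.53 RPKM in FC/FC against 1.53, 2.21, and 1.84 RPKM in F/F libraries, where the nearest libraries of the 2 genotypes were almost equal (log2 fold change -0.46 with a standard error of 0.17, limma adjusted p = 0.136). H3K4me1 over Cxcr5, the B-cell follicle receptor, was 1.02, 1.06, and 0.994 RPKM in FC/FC against 1.10, 1.26, and 1.10 RPKM in F/F libraries, without overlap (limma adjusted p = 0.185).

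Without the filter on RPKM, every member could be compared by overlap alone. In H3K4me2, 13 of the 54 members were lower in all FC/FC libraries than in any F/F library (12.7% of all genes), and 4 were higher (17.3%). The 13 were Ccl3, Ccl9, Ccl17, Ccl20, Ccr6, Cx3cl1, Cxcl3, Cxcl9, Cxcl11, Cxcl17, Cxcr2, Cxcr5, and Cxcr6, and 10 of them were under the level for testing. Among them are Ccl20 and its receptor Ccr6, with H3K4me2 of 0.112, 0.212, and 0.212 RPKM over Ccl20 in FC/FC against 0.331, 0.440, and 0.224 RPKM in F/F libraries. In H3K4me1, 4 were lower (Ccl17, Ccl22, Cxcl17, and Cxcr5, against 9.48% of genes) and 2 higher (Ccr3 and Cxcl3, against 22%). In H3K4me3, 6 were lower (Ccl17, Ccl20, Ccr10, Cx3cl1, Cxcl13, and Cxcr2, against 5.38%) and 2 higher (Cxcl14 and Cxcr4, against 3.4%). Ccl17 was in the lower set in all 3 marks. Many of these levels rest on few reads, as with Ccl20 in H3K4me3 (12 to 33 reads; 0.140, 0.106, and 0.113 RPKM in FC/FC against 0.247, 0.287, and 0.200 RPKM in F/F libraries).

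No member gained or lost a promoter peak in all libraries of a genotype. A peak was lost where every F/F library and none of the FC/FC libraries had it, and gained in the reverse case. Over all genes, 0.126% lost and 0.447% gained an H3K4me1 peak, 0.104% lost and 0.0694% gained an H3K4me2 peak, and 0.0304% lost and 0.0391% gained an H3K4me3 peak. The members with a promoter peak numbered 16, 17, and 17 in the FC/FC and 17, 17, and 18 in the F/F libraries for H3K4me1. They numbered 17, 17, and 18 in FC/FC against 19, 17, and 19 in F/F libraries for H3K4me2, and 12, 12, and 11 in FC/FC against 13, 12, and 13 in F/F libraries for H3K4me3. The H3K4me1 peak of Cxcl1 came nearest to a loss, with a peak in 1 of 3 FC/FC libraries (score 53.3) and in 3 of 3 F/F libraries (scores 102, 121, and 104), and it would count as lost without NGS-6297. The H3K4me2 peak of Ccl17, in none of the FC/FC libraries, would count as lost without NGS-6286. The H3K4me1 level over Cxcl1 overlapped between the genotypes (1.67, 1.76, and 1.77 RPKM in FC/FC against 1.49, 1.97, and 1.80 RPKM in F/F libraries).

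Regions away from the start sites of the transcripts in the files were described apart, because MLL2 is known for H3K4 methylation at enhancers. Peaks of the 6 libraries of a mark were merged, and those over 5 kb from every start site and within 50 kb of that of a member were kept. This gave 152 regions for H3K4me1, 111 for H3K4me2, and 17 for H3K4me3, of which 73, 58, and 10 had a peak in all 6 libraries. Some H3K4me3 regions had a score of 3100 in every library, among them chr8:94702126-94705289 near Ccl22 and chr9:123922959-123926603 near Ccr1. Promoters of transcripts that the files do not list may therefore be among these regions. The regions with an H3K4me2 peak numbered 76, 71, and 73 in the FC/FC and 88, 89, and 96 in the F/F libraries, a ratio of means of 0.806, against 0.836 for all distal regions. For H3K4me1 they numbered 108, 103, and 101 in FC/FC against 111, 112, and 123 in F/F libraries (ratio 0.902, all distal regions 0.927), and for H3K4me3 13, 10, and 12 in FC/FC against 14, 14, and 16 in F/F libraries (ratio 0.795, all distal regions 0.914). FC/FC libraries had fewer H3K4me2 peaks in all, 56112 to 58585, against 62100 to 70437 in F/F libraries. Once each library was cut to an equal number of its best peaks, 56112, the H3K4me2 regions numbered 72, 69, and 73 in FC/FC against 73, 75, and 75 in F/F libraries (ratio 0.960, all distal regions 0.995).

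Individual distal regions near members were lost in 3 cases for H3K4me1 (0.921% of all distal regions) and 2 for H3K4me2 (2.52%), and none was gained (0.323% and 0.0999%). None was lost or gained for H3K4me3 (1.25% and 0.0568%). With the same number of best peaks in each library, no H3K4me2 region near a member was lost and 1 was gained, while 382 were lost and 367 gained over all distal regions, against 1362 and 54 with the peaks as deposited. The H3K4me1 losses were then 2. With 1 library left out, 3 to 5 were lost in each of these marks, 5 for H3K4me1 without NGS-6281 and for H3K4me2 5 without NGS-6290, NGS-6298, or NGS-6278 and 4 without NGS-6286, and at most 1 was gained. The H3K4me1 regions lay at chr1:83152331-83153527 (35565 bp from the start of Ccl20), chr11:101162063-101163941 (11502 bp from Ccr10), and chr6:117185225-117186155 (16690 bp from Cxcl12). Their scores in the F/F libraries were 73.0, 68.3, and 110 near Ccl20, 195, 68.2, and 172 near Ccr10, and 102, 56.4, and 61.8 near Cxcl12, and several are close to the minimum of 50. Both H3K4me2 regions lay in the cluster of Ccl22, Cx3cl1, and Ccl17 on chromosome 8. Each was next to a higher-scoring H3K4me2 region with peaks in all 6 libraries. Those neighbours were at chr8:94701868-94705580 (mean score 3100) and chr8:94786960-94790498 (mean score 2301). The region at chr8:94706173-94707570, 38114 bp from the start of Ccl22, had scores of 102, 137, and 94.1 in the F/F libraries. The region at chr8:94785064-94786233, 12884 bp from the start of Cx3cl1, had scores of 58.6, 62.4, and 70.1. Nearness was the sole link of these regions to a gene.

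Genes that act with the chemokines were described by lists, of which no member passed with limma. This held in each mark for the atypical receptors and other ligands of the system (6 tested for H3K4me1, 3 for H3K4me2, and 3 for H3K4me3), NF-κB regulators (17, 24, and 22), inflammatory cytokine and adhesion genes (9, 7, and 6), and chemokine receptor signalling genes (19, 15, and 14). At an unadjusted p under 0.05, 0, 0, 0, and 2 of these genes were higher and 1, 3, 2, and 4 lower in FC/FC cells for H3K4me1, in the order of the lists. For H3K4me2, 1, 6, 0, and 1 were higher and 0, 2, 2, and 2 lower, and for H3K4me3 none was higher and 0, 1, 2, and 0 were lower. With limma-voom, 1, 0, 2, and 3 passed for H3K4me1 (8.44% of all genes), 0, 1, 0, and 2 for H3K4me2 (3.63%), and none for H3K4me3 (0%). Their median log2 fold changes for H3K4me2 were 0.05, 0.08, -0.01, and 0.04, beside 0.07 over all genes. Near the edges of these lists were Ccrl2, an atypical chemokine receptor (0.17, limma adjusted p = 0.133), Nfkbib, an inhibitor of NF-κB (0.16, adjusted p = 0.0896), Ptgs2, the inducible prostaglandin synthase (0.23, adjusted p = 0.276), and Gng5, a G protein subunit (0.20, adjusted p = 0.144). On the lower side were Traf2, an adaptor of tumour necrosis factor receptors (-0.21, limma adjusted p = 0.0696), Il6, an inflammatory cytokine (-0.20, adjusted p = 0.0874), and Ptk2b, a kinase of receptor signalling (-0.18, adjusted p = 0.0803). Mif, a cytokine that also binds chemokine receptors, had 30.7, 29.0, and 28.7 RPKM of H3K4me2 in FC/FC against 29.7, 28.3, and 30.7 RPKM in F/F libraries, which overlapped.

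Markers of other cell types were counted in the same way. With limma no fibroblast marker passed (12, 13, and 11 tested for H3K4me1, H3K4me2, and H3K4me3), nor did a haematopoietic (5, 3, and 0 tested) or endothelial one (2, 1, and 0). For H3K4me2, 1 fibroblast marker was higher and 1 lower at an unadjusted p under 0.05, no other of these did so, and none passed with limma-voom. For H3K4me1, 3 fibroblast, 3 haematopoietic, and 1 endothelial markers were lower at that level (15% of all genes), and 3, 1, and 1 passed with voom (8.44%). None was called by either for H3K4me3. In H3K4me2 the smallest p-values were those of Fn1, fibronectin (log2 fold change 0.23, limma adjusted p = 0.109), and Thy1 (-0.22, adjusted p = 0.158) among fibroblast markers, Coro1a (0.15, adjusted p = 0.355) and Spi1 (-0.21, adjusted p = 0.333) among haematopoietic ones, and Kdr (-0.04, adjusted p = 0.721) among endothelial ones. Of the 8 epithelial markers, Cdh1, which encodes E-cadherin, was the sole one tested (H3K4me1 and H3K4me2), and it passed for H3K4me2, where it too reached the level for testing through the F/F libraries alone (limma adjusted p = 0.0351 without the filter). Its level was 0.895, 0.766, and 0.795 RPKM in FC/FC against 1.25, 1.10, and 1.22 RPKM in F/F libraries (log2 fold change -0.49, limma adjusted p = 0.0328). The summed H3K4me2 level of the epithelial markers was 2.14 to 2.75 RPKM in FC/FC and 2.76 to 2.96 RPKM in F/F libraries, and 0 of the 8 were at 0. Without Cdh1 the sum was 1.35 to 1.85 RPKM in FC/FC and 1.65 to 1.74 RPKM in F/F libraries, which overlapped, and 2 of the 8 markers were lower in every FC/FC than in any F/F library. The summed H3K4me1 level was 5.39 to 6.14 RPKM in FC/FC and 6.78 to 7.27 RPKM in F/F libraries, and without Cdh1 3.40 to 3.95 RPKM in FC/FC and 4.13 to 4.59 RPKM in F/F libraries. Cdh1 itself had a log2 fold change of -0.35 in H3K4me1 (limma adjusted p = 0.0660) and was called by voom. The level over Cdh1 and the summed H3K4me1 of these markers were lower in FC/FC cells, as was H3K4me2 over Cxcl17. Their part in that result was not tested. Epcam, another of the 8, had a mean H3K4me2 of 0.564 RPKM in FC/FC and 0.479 RPKM in F/F libraries, with overlap. A lower H3K4me1 sum was not particular to these markers. That of the inflammatory cytokine and adhesion genes was 26.6 to 26.7 RPKM in FC/FC and 28.1 to 28.5 RPKM in F/F libraries.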

How the data were processed

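H3K4me1, H3K4me2, and H3K4me3 ChIP-seq of 3 FC/FC and 3 F/F libraries per mark was used, 18 of 52 samples, and 34 were not used here. The submitters' processing notes name CASAVA 1.4, BWA 0.7.10, MACS 1.4.2, and mm10. The authors deposited RPKM over transcripts extended by 500 bp, not normalized to H3, and peaks called per library against H3 with a score of -10 times the log10 of the p-value (minimum 50). RPKM times length gave whole reads for 100% of values (tolerance 0.01 read). Of 28748 transcripts, 1352 under 250 bp were left out, and the longest was kept per gene.

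Members, gene lists, and the naming rule were chosen with earlier results of these data known. Named were the members that passed in any mark, the 4 with the highest mean per mark, the 3 largest non-overlapping differences per mark, Cxcl12 and Cxcr4, and for each other list the smallest H3K4me2 p in each direction. Others named for a pattern were chosen after their values were seen.

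Differences on log2(RPKM + 0.1) were tested per mark with limma 3.58.1 in R 4.3.3 (moderated, mean-variance trend) with Benjamini-Hochberg adjustment over all genes tested. The fit was tested on simulated data. Python 3.11.15, numpy 2.4.6, pandas 2.3.3, and matplotlib 3.10.9 were used. Alternatives were pseudocounts of 0.01 and 1, no filter, the shortest transcript, quantile normalization, centring, no trend, 1 fit of 18 libraries, voom, other peak settings, and leaving out each library.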

Additional observations from a re-analysis of the deposited data

How the results depend on the processing

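Cxcl17 in H3K4me2 had a log2 fold change of -0.69 to -0.32 over 15 alternatives and passed in 11 of them, with limma adjusted p of 0.000902 to 0.156. The number of members called for H3K4me1 was 0, and 1 (Ccl17) with quantile normalization, centring, and voom. For H3K4me2 it was 1, and 0 to 3 when a library was left out. The 3 were called without NGS-6282, where 2108 of the 9986 genes tested were called higher and 847 lower in FC/FC cells. Genes called over all, higher and lower in FC/FC, were 0 and 0 for H3K4me1, but 17 and 69 with quantile normalization, 16 and 71 with centring, 127 and 150 in 1 fit of 18 libraries, and 114 and 609 with voom. For H3K4me2 they were 58 and 154, but 68 and 383 without the filter, 26 and 312 with quantile normalization, 27 and 406 with centring, 163 and 326 in 1 fit, and 92 and 270 with voom, and for H3K4me3 4 and 18 in 1 fit against 0 and 0. Without NGS-6290, NGS-6278, NGS-6286, and NGS-6294 the lower H3K4me2 calls over all genes were 6, 5, 11, and 0, and the higher ones 0 each. In H3K4me2 the members had a median log2 fold change of -0.12 with the shortest transcript. Members whose H3K4me1 promoter peak was lost or gained numbered 1 (Cxcl1) with scores of at least 100 and with the same number of peaks, and 0 to 1 with a library left out, as for H3K4me2 (Ccl17 without NGS-6286). Distal regions lost or gained near members numbered 1 for H3K4me1 with scores of at least 100, 5 within 100 kb, and 4 to 5 with a library left out. For H3K4me2 they numbered 7 (6 lost and 1 gained), 4, and 3 to 5 in these settings, and 1 with the same number of peaks, which was a gain, with 0 lost. For H3K4me3 they numbered 0 to 2 with a library left out. With quantile normalization, differences that did not pass changed sign to 0.00097 for Ccl2, 0.033 for Ccl7, 0.0081 for Cxcl12, and 0.0017 for Cxcl5 in H3K4me1, and to -0.0080 for Cxcl1 and -0.027 for Cxcl5 in H3K4me2. With a library left out, ranges that crossed 0 were -0.068 to 0.018 for Ccl7, -0.16 to 0.0080 for Ccl9, -0.11 to 0.079 for Cxcl1, -0.027 to 0.0040 for Cxcl12, and -0.080 to 0.017 for Cxcl5 in H3K4me1, and for Ccl7 -0.33 to 0.022 in H3K4me2 and -0.35 to 0.16 in H3K4me3. Within these ranges, Ccl7 was at 0.0069 without NGS-6293 in H3K4me1 and at 0.082, 0.021, and 0.054 without NGS-6283, NGS-6287, and NGS-6295 in H3K4me3, Ccl9 was at 0.0050 without NGS-6293, Cxcl1 at 0.020 without NGS-6281 and 0.018 without NGS-6293, and Cxcl5 at 0.011 without NGS-6289. The causes were not tested. No paired analysis was possible because no label pairs an F/F with an FC/FC library, and the replicate numbers follow the order of deposit. A change shared by all genes is not detectable in RPKM.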
